A study of Homo sapiens with 12 samples.

Results

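The genes described here are 4 of the ADAMTS family, ADAMTS4, ADAMTS7, ADAMTS14 and ADAMTSL5, together with ACAN, which encodes the proteoglycan aggrecan. They were taken by name from a deposited table of 666 genes, and all 5 were found there. Their transcript levels were compared among HEPM cells, a human embryonic palatal mesenchymal cell line, that had been transfected with an empty plasmid (Vector) or with a plasmid for MSX1, MSX1 K139R or MSX1 K139Q. Each of the 4 groups held 3 RNA-seq libraries, labelled with a time of 8 h. MSX1 is a homeodomain transcription factor of the developing palate. The K139R plasmid carries arginine, which cannot be acetylated, in place of a lysine of MSX1, and the K139Q plasmid carries glutamine there, which mimics the acetylated form. The methods of the study name the cells as mouse cells (MEPM), whereas the labels and every gene identifier are human. The library names of the K139R and K139Q samples give R157S and R157K, a different amino acid change from that in their titles, and the titles were followed. The transfected groups carry MSX1 far above its natural level, so they describe overexpression.

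ADAMTS proteins are secreted zinc proteases that cut extracellular matrix, and each carries thrombospondin type 1 repeats that help to place it on its substrate. ADAMTS4 is an aggrecanase: it cuts the core protein of aggrecan, the large chondroitin sulfate proteoglycan that holds water in cartilage and that is also made in embryonic mesenchyme. ADAMTS7 cuts cartilage oligomeric matrix protein (COMP). ADAMTS14 is a procollagen N-propeptidase, which trims fibrillar procollagens before they assemble. ADAMTSL5 belongs to the ADAMTS-like proteins, which share the repeats but lack the protease domain and bind to fibrillin microfibrils.

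In GENCODE release 29 (GRCh38), ADAMTS4 (ENSG00000158859) lies on the minus strand at chr1:161184308-161199056 with 9 exons in its longest coding transcript, and ADAMTS7 (ENSG00000136378) on the minus strand at chr15:78759203-78811431 with 24 exons. ADAMTS14 (ENSG00000138316) is on the plus strand at chr10:70672803-70762441 with 22 exons, ADAMTSL5 (ENSG00000185761) on the minus strand at chr19:1505018-1513604 with 12 exons, and ACAN (ENSG00000157766) on the plus strand at chr15:88803442-88875354 with 19 exons. The division into proteases, a protease-like protein and a substrate can be read in the coding exons. The following stretches encode the zinc-binding motif of the 3 proteases, with the codons of its 3 histidines and its catalytic glutamate in capitals, and the aggrecanase site of aggrecan, with the glutamate and alanine codons on either side of the cut in capitals.
ADAMTS4, exons 3 and 4: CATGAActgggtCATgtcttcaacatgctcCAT
ADAMTS7, exons 7 and 8: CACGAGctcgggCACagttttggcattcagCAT
ADAMTS14, exons 7 and 8: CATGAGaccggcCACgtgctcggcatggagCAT
ACAN, exon 7: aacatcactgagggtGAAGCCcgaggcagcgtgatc
In each protease, the motif spans an exon junction, at chr1:161195613-161196180 in ADAMTS4, chr15:78788359-78789705 in ADAMTS7 and chr10:70732343-70733900 in ADAMTS14. The aggrecanase site lies within one exon at chr15:88845612-88845647. The coding sequence of ADAMTSL5 held 0 such motifs in 471 codons.

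The table is not a sample of the transcriptome. Genes entered it because they differed between MSX1 and Vector in these same libraries, so that comparison is described here for the members and is not independent evidence, and the comparisons of K139R and K139Q share its Vector or MSX1 libraries. Each gene had been centred and scaled by the authors over the 12 libraries. The underlying expression values, in steps of 0.01, could be recovered for 665 of the 666 genes, all 5 members among them. Neither the unit of these values nor the number of reads behind them is given in the sources used here, so that levels are compared between groups for 1 gene and never between genes, and the counting error of a value near 0 is unknown. Of the 665 genes, 533 reached a group mean of 1 somewhere and were tested with limma on log2(value + 1). Of the 5 members, 2 passed this filter, ADAMTS7 and ADAMTSL5. ADAMTS4, ADAMTS14 and ACAN stayed near 0, with every group mean below 1. MSX1 itself was at 17.15 to 20.28 in the Vector libraries and at 4672 to 13893 in the other 9. Its group mean was 1.46 times that of the MSX1 group in K139R, with overlap, and 1.675 times in K139Q, without overlap. The plasmid groups are thus not compared at an equal level of MSX1, and its part in their differences was not tested.

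Of 26 ADAMTS and ADAMTSL genes looked for, only these 4 are in the table, and ADAMTS1, ADAMTS5 and ADAMTS9, which also cut aggrecan or versican, were not analysed here. Genes outside the table were not analysed here.

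ADAMTS7 and ADAMTSL5 were higher in all 3 MSX1 plasmid groups than in Vector. Their group means were 2.40 to 3.69 times those of Vector, and no difference between the plasmid groups passed the tests given below.

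The expression value of ADAMTS7 was 2.46, 2.07 and 1.44 in Vector replicates 1, 2 and 3. It was 6.87, 4.99 and 7.0 in the MSX1 libraries, 6.54, 4.46 and 3.30 in the K139R libraries, and 4.56, 6.15 and 4.34 in the K139Q libraries. Every plasmid library thus lay above every Vector library, and the lowest of them, K139R replicate 3, was the nearest to Vector. By group, ADAMTS7 was at 1.99 ± 0.515 (SD, n = 3) in Vector, 6.29 ± 1.12 in MSX1, 4.77 ± 1.64 in K139R and 5.02 ± 0.988 in K139Q. The order was MSX1, K139Q, K139R and Vector. The libraries of the 3 upper groups overlapped, and only the step from K139R down to Vector was free of overlap.

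ADAMTSL5 was at 0.82, 1.16 and 1.22 in Vector replicates 1, 2 and 3. Its value was 4.20, 2.46 and 5.15 in MSX1, 5.31, 2.53 and 2.48 in K139R, and 3.26, 3.62 and 2.93 in K139Q. The highest library of all was K139R replicate 1, while the other K139R libraries were near the lowest MSX1 library. The group means were 1.07 ± 0.216 (SD, n = 3) in Vector, 3.94 ± 1.36 in MSX1, 3.44 ± 1.62 in K139R and 3.27 ± 0.345 in K139Q. The order was MSX1, K139R, K139Q and Vector, again with overlap among the upper 3 groups and a gap above Vector.

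**Figure D1:**
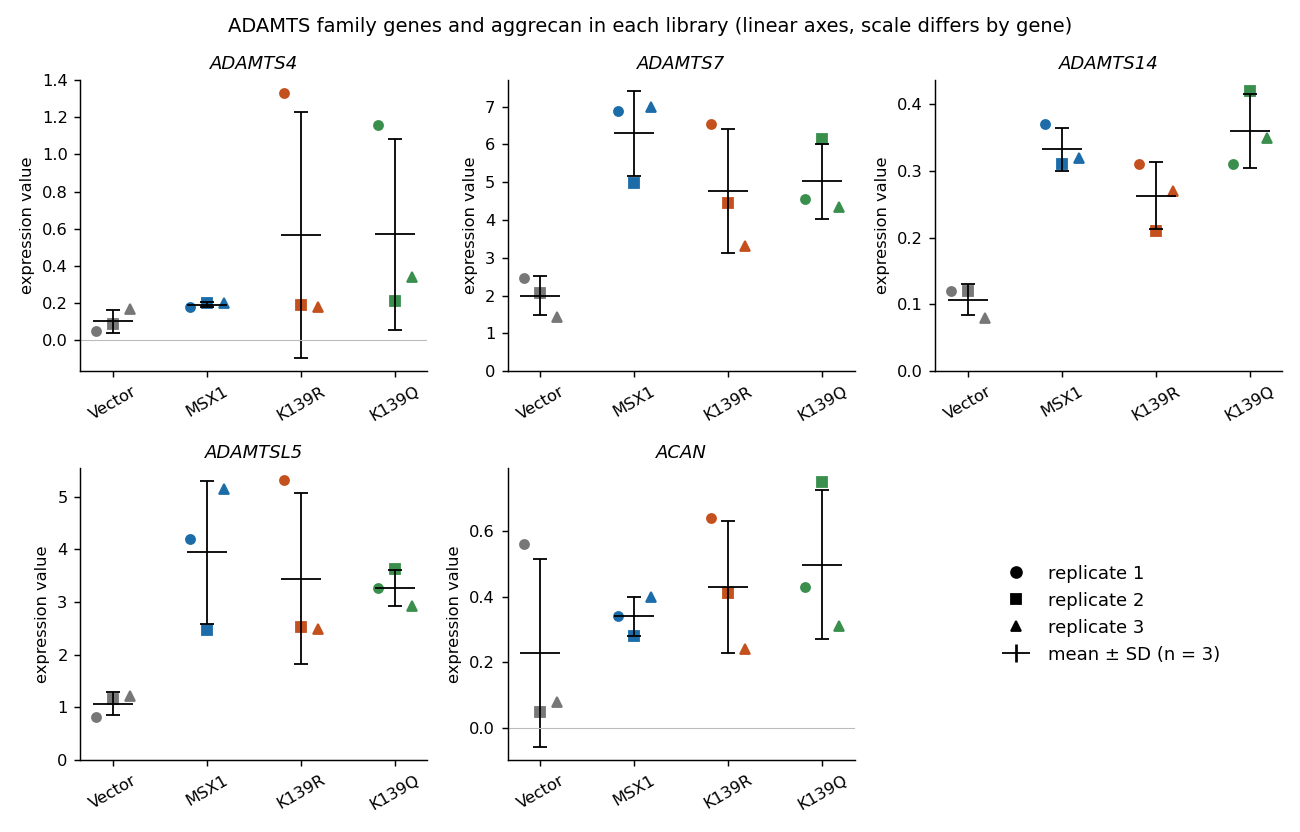
Expression value (linear axis, unit not given, one scale per gene) of the 5 genes in each of the 12 libraries, with the group mean and SD (n = 3) in black. ADAMTS7 and ADAMTSL5 rise from group means of 1.99 and 1.07 in Vector to between 3.27 and 6.29 in the plasmid groups, whereas the means of ADAMTS4, ADAMTS14 and ACAN all lie at or below 0.57. Lower SD bars that pass below 0 belong to groups where 1 library is far above the others.

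For MSX1 against Vector, the ratio of group means was 3.16 for ADAMTS7 and 3.69 for ADAMTSL5. In limma's fit over all 12 libraries, ADAMTS7 had a log2 difference of 1.29 (SE 0.23, 95% interval 0.80 to 1.78, adjusted p = 4.28e-04) and ADAMTSL5 of 1.22 (SE 0.25, 0.68 to 1.76, adjusted p = 9.35e-04). These are differences of log2(value + 1), which are smaller in size than the ratio for low values. Both of the tested members were called higher, as were 67.7% of the 533 tested genes, a background that follows from how the table was made. The exact two-sided permutation test gave p = 0.1 for each, the smallest that 3 libraries against 3 allow. The groups did not overlap for 4 of the 5 members, ACAN being the exception, and MSX1 lay wholly above Vector for 68.4% of the 665 genes.

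K139R exceeded Vector by a ratio of 2.40 for ADAMTS7 and 3.23 for ADAMTSL5. The log2 differences in limma were 0.92 (SE 0.23, 95% interval 0.43 to 1.41, adjusted p = 0.00389) and 1.05 (SE 0.25, 0.51 to 1.59, adjusted p = 0.00335). K139Q exceeded Vector by a ratio of 2.52 and 3.07, with log2 differences of 1.01 (0.52 to 1.5, adjusted p = 0.00207) and 1.05 (0.51 to 1.59, adjusted p = 0.00285). Both tested members were thus called higher in both comparisons, beside 60.0% of the tested genes in K139R and 64.0% in K139Q. The same 4 members did not overlap with Vector in either comparison, beside 60.6% and 64.1% of the 665 genes (exact permutation p = 0.1 each, the smallest possible).

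The question of the design for these genes is whether blocking or mimicking acetylation of that lysine changes the response to MSX1. ADAMTS7 was lower in K139R than in MSX1 by group means, with a log2 difference of -0.36 (95% interval -0.85 to 0.13, adjusted p = 0.317 from limma, exact permutation p = 0.2), and in K139Q the difference was -0.28 (-0.77 to 0.21, adjusted p = 0.639 from limma, exact permutation p = 0.2). With the GC trend of each library removed, as described below, the difference of ADAMTS7 was -0.0186 in K139R and -0.14 in K139Q (adjusted p = 0.967 and 0.7 from limma). Without that removal, leaving out 1 library moved the difference of -0.36 in K139R to between -0.58, without K139R replicate 1, and -0.17, without K139R replicate 3. ADAMTSL5 differed by -0.17 in each (-0.71 to 0.37 in both, adjusted p = 0.669 and 0.804 from limma). None of these passed. The intervals reach down to -0.85 and up to 0.37, so they do not show that the plasmids act alike. Neither tested member was among the calls against MSX1, which were 4.32% of the tested genes for K139R and 0.938% for K139Q.

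Between K139Q and K139R, the log2 difference was 0.09 for ADAMTS7 (95% interval -0.40 to 0.58, adjusted p = 0.876 from limma, exact permutation p = 0.9), and ADAMTSL5 was at 3.27 against 3.44. Its difference of log2 values was -0.001 (-0.54 to 0.54, adjusted p = 0.998 from limma, exact permutation p = 1). Neither was called, and 0.188% of the tested genes were. This comparison shares no library with the authors' choice of genes. With the 6 mutant libraries as one group, ADAMTS7 was -0.32 from MSX1 (-0.74 to 0.10, adjusted p = 0.352 from limma, exact permutation p = 0.119; -0.0789 with the GC trend removed) and ADAMTSL5 -0.17 (-0.64 to 0.30, adjusted p = 0.656 from limma, exact permutation p = 0.548), in a comparison that called 3.75% of the tested genes.

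**Figure D2:**
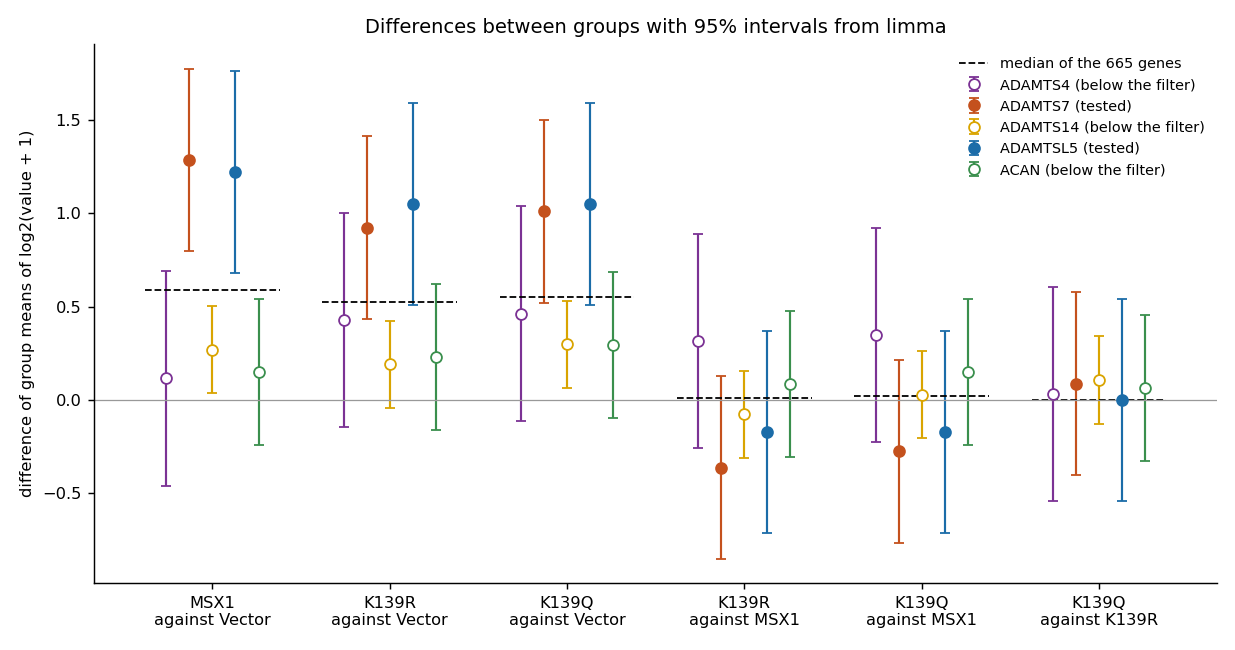
Difference of group means of log2(value + 1), first group minus second, for the 5 genes in 6 comparisons, with 95% intervals from limma. Filled circles are the 2 genes in the fit of 533 genes, open circles the 3 genes below the filter with intervals from the fit without it, and the dashed line is the median of the 665 genes. ADAMTS7 and ADAMTSL5 lie above 0.9 in the 3 comparisons with Vector, and every interval in the comparisons among plasmids includes 0.

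The libraries differed in how their values followed the GC content of the genes, and this moved with the groups. For each library, the deviation of log2(value + 1) from the gene's mean over the 12 libraries was fitted on GC content. The sign of such a slope is relative to the other libraries, and the genes had been chosen on MSX1 against Vector. The slope was -0.279, -0.232 and -0.294 per 10 points in Vector replicates 1, 2 and 3. In the MSX1 libraries it was 0.282, 0.153 and 0.296. It was 0.233, -0.171 and -0.324 in K139R and -0.0212, 0.244 and 0.113 in K139Q. The transcripts of ADAMTS7 and ADAMTSL5 are GC-rich, at 65.7% and 62.3% beside a median of 56.7% for the 634 table genes with a value. Within K139R, both were highest in replicate 1, the K139R library with a positive slope. With the trend removed from each library, the log2 difference from Vector fell to 0.75, 0.74 and 0.61 for ADAMTS7 in MSX1, K139R and K139Q (adjusted p = 0.0011, 0.00148 and 0.00423 from limma) and to 0.86, 0.92 and 0.78 for ADAMTSL5 (adjusted p = 0.00207, 0.00153 and 0.004 from limma). All 6 stayed past the threshold, on a median of all tested genes that was then 0.61, 0.61 and 0.61 and had been 0.77, 0.65 and 0.69. Relative to that median, the difference of ADAMTS7 went from 0.52 to 0.14 in MSX1, from 0.27 to 0.13 in K139R and from 0.32 to 0.0094 in K139Q, and that of ADAMTSL5 from 0.45 to 0.25, from 0.40 to 0.32 and from 0.36 to 0.18.

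Quantile normalization, under which all libraries have one distribution, shifted the median difference of the tested genes by -0.461, -0.523 and -0.523 in MSX1, K139R and K139Q against Vector. The calls then split into 183 higher and 147 lower, 85 and 98, and 114 and 117, where they had been 361 and 118, 320 and 29, and 341 and 50. ADAMTS7 was then at 0.37 in K139R (adjusted p = 0.0961 from limma), and ADAMTSL5 at 0.51 in K139R and 0.49 in K139Q (adjusted p = 0.0917 and 0.0877 from limma), so that these 3 calls were lost. Relative to the median of all genes, the differences in K139R moved from 0.27 to 0.24 for ADAMTS7 and from 0.40 to 0.38 for ADAMTSL5. In K139Q, that of ADAMTSL5 moved from 0.36 to 0.32.

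**Figure D3:**
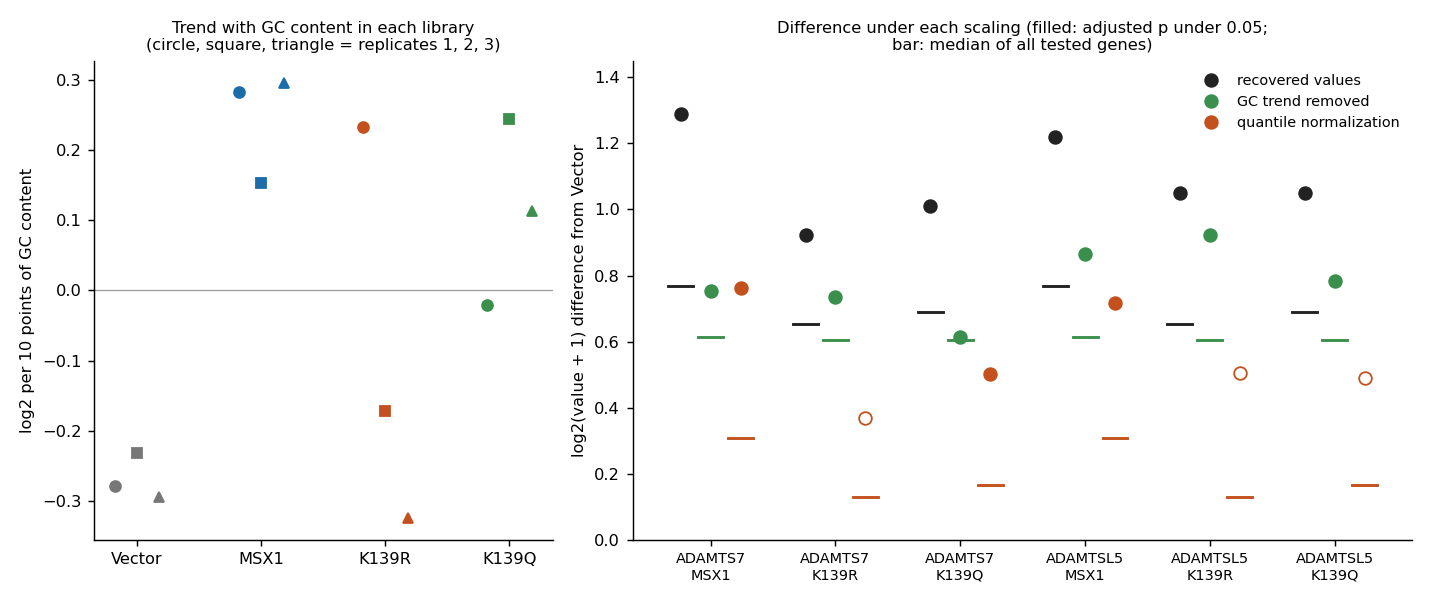
Left, slope on GC content (log2 per 10 points) of each library's deviation from the gene means over the 12 libraries. It is negative in all 3 Vector libraries and positive in all 3 MSX1 libraries, relative to the other libraries. Right, difference of log2(value + 1) from Vector for ADAMTS7 and ADAMTSL5 with the recovered values, after removal of the GC trend and after quantile normalization, with bars for the median of all tested genes. All points lie above the bar of their own scaling, that of ADAMTS7 in K139Q after removal of the GC trend by 0.0094, and the 3 open points, at 0.37, 0.51 and 0.49, are those that no longer passed.

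The other 3 members had values so low that a single library could set a group mean. ADAMTS14 was the steadiest of them. It was at 0.12, 0.12 and 0.08 in Vector, 0.37, 0.31 and 0.32 in MSX1, 0.31, 0.21 and 0.27 in K139R, and 0.31, 0.42 and 0.35 in K139Q. All 9 plasmid libraries lay above all 3 Vector libraries, and the plasmid groups overlapped one another. The group means were 0.107 ± 0.0231 (SD, n = 3), 0.333 ± 0.0321, 0.263 ± 0.0503 and 0.36 ± 0.0557, a ratio to Vector of 3.13, 2.47 and 3.38. When the filter was left out and all 665 genes were fitted, ADAMTS14 passed limma in MSX1 (log2 difference 0.27, 95% interval 0.03 to 0.50, adjusted p = 0.0345) and in K139Q (0.30, 0.06 to 0.53, adjusted p = 0.0283). It did not pass in K139R (0.19, -0.04 to 0.42, adjusted p = 0.14). Without the filter, 64.8%, 57.1% and 59.4% of the 665 genes were called higher in MSX1, K139R and K139Q. The number of reads behind values of this size is unknown.

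ADAMTS4 was near 0, at 0.34 or below, in 10 of the 12 libraries and several-fold higher in the other two. It was at 0.05, 0.09 and 0.17 in Vector and at 0.18, 0.20 and 0.20 in MSX1. K139R gave 1.33, 0.19 and 0.18, and K139Q 1.16, 0.21 and 0.34. The high libraries were replicate 1 of K139R and replicate 1 of K139Q, and they alone set the group means of 0.567 ± 0.661 (SD, n = 3) and 0.57 ± 0.515, beside 0.193 ± 0.0115 in MSX1 and 0.103 ± 0.0611 in Vector. The gap between the highest Vector and the lowest MSX1 library was a single step of 0.01. In the fit without a filter, the log2 difference from Vector was 0.11 (95% interval -0.46 to 0.69), 0.43 (-0.15 to 1.00) and 0.46 (-0.11 to 1.04) in MSX1, K139R and K139Q, and none passed (adjusted p = 0.674, 0.169 and 0.136 from limma). Without K139R replicate 1, the difference of K139R from Vector was 0.10, and without K139Q replicate 1 that of K139Q was 0.21. K139Q and MSX1 did not overlap for ADAMTS4 (exact permutation p = 0.1, the smallest possible), the only member of which this was so, beside 20.2% of the 665 genes. That gap too was a single step of 0.01, from 0.20 in MSX1 to 0.21 in K139Q, as was the gap from 0.17 in Vector to 0.18 in K139R.

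The pair of libraries that stood out for ADAMTS4 was then looked for in the rest of the table, after its values had been seen. In 15 of the 665 genes (2.26%), K139R replicate 1 and K139Q replicate 1 were both above the other 10 libraries. ADAMTS4 led these genes, with the lower of the pair at 3.41 times the next library, and OLFML2B, which encodes a secreted olfactomedin-like protein, followed at 1.42 times.

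ACAN, the substrate, showed no separation of the groups. It was at 0.56, 0.05 and 0.08 in Vector, 0.34, 0.28 and 0.40 in MSX1, 0.64, 0.41 and 0.24 in K139R, and 0.43, 0.75 and 0.31 in K139Q. Vector replicate 1 was above all 3 MSX1 libraries, while the other Vector libraries were the lowest of the 12. The means were 0.23 ± 0.286 (SD, n = 3), 0.34 ± 0.06, 0.43 ± 0.201 and 0.497 ± 0.227, in the order K139Q, K139R, MSX1 and Vector, and each neighbouring pair overlapped. In the fit without a filter, the log2 difference from Vector was 0.15 (95% interval -0.24 to 0.54), 0.23 (-0.16 to 0.62) and 0.30 (-0.10 to 0.69), and none passed (adjusted p = 0.434, 0.268 and 0.157 from limma, exact permutation p = 0.4, 0.3 and 0.3). The difference of MSX1 from Vector was 0.33 without Vector replicate 1, 0.045 without Vector replicate 2 and 0.0653 without Vector replicate 3.

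By group means, all 5 members were higher in MSX1, K139R and K139Q than in Vector, where 72.2%, 77.7% and 75% of the 665 genes were. Their median log2 difference was 0.27, 0.43 and 0.46, below the median of all 665 genes at 0.59, 0.53 and 0.55. In K139R and K139Q, the member median was the value of ADAMTS4. The 3 members below the filter had values near 0, and the part of this in the lower median was not tested. Against MSX1, the median was -0.08 in K139R and 0.03 in K139Q, and between K139Q and K139R it was 0.06, with 0.01, 0.02 and -0.001 for all genes. Within a group, the same library tended to be high for several members. K139R replicate 1 was the highest K139R library for all 5 members and for 49.9% of the 665 genes. K139Q replicate 2 was the highest of its group for 4 of 5 (53.4% of all genes), and MSX1 replicate 2 the lowest of its group for 4 of 5 (49.3% of all genes). Within their groups, the MSX1 transcript was highest in K139R replicate 1 (13561) and K139Q replicate 2 (13893) and lowest in MSX1 replicate 2 (4672). Its part in these orders was not tested.

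The likeness of the patterns was measured by the mean absolute difference of the deposited scaled values over the 12 libraries, a description without a test. Among the members, ADAMTS7 and ADAMTSL5 were closest, at 0.331, followed by ADAMTS7 and ADAMTS14 at 0.385. The pairs with ACAN were at 0.641 to 0.907 and those with ADAMTS4 at 0.815 to 1.01. In the whole table, ADAMTS7 was nearest to NOTCH3, a Notch receptor of mural cells (0.128), to CSPG4, a membrane chondroitin sulfate proteoglycan (0.136), and to CACNA1G, a calcium channel subunit (0.173). CSPG4 was at 1.05 ± 0.173 (SD, n = 3), 3.36 ± 0.567, 2.5 ± 1.14 and 2.66 ± 0.667 in Vector, MSX1, K139R and K139Q, the same order of groups as ADAMTS7. ADAMTSL5 was nearest to MXRA8, a membrane protein of the immunoglobulin superfamily (0.207), and then to GRIN2C (0.221) and ZNF385A (0.223). For ADAMTS14 these were WNT7B, a Wnt ligand (0.202), ABCG1, a cholesterol transporter (0.232), and TUBB3 (0.232). The nearest genes of ACAN were SCRT1 (0.339), KCNH3 (0.392) and the forkhead factor FOXC2 (0.455), and OLFML2B (0.533) and C1orf167 (0.548) were among those nearest to ADAMTS4. The 3 nearest genes of ADAMTS7, of ADAMTSL5 and of ADAMTS14 were thus within 0.232, whereas ACAN and ADAMTS4 had none at that distance.

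For the pair that rose together, the RefSeq promoter, 250 bases before to 50 after the start of the gene (GRCh38.p14), is shown 5′ to 3′ on the gene's strand with the GC box GGGCGG, in either orientation, in capitals. ADAMTS7 is at chr15:78811415-78811714 and ADAMTSL5 at chr19:1512970-1513269, both on the minus strand. RefSeq and GENCODE place the start of ADAMTSL5 differently, and its window lies within the gene as GENCODE annotates it.
ADAMTS7: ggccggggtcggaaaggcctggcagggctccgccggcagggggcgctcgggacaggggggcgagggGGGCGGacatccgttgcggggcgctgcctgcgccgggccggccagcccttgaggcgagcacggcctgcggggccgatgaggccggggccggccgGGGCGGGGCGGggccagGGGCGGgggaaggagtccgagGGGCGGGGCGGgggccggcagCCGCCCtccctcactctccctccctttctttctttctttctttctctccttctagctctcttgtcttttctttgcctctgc
ADAMTSL5: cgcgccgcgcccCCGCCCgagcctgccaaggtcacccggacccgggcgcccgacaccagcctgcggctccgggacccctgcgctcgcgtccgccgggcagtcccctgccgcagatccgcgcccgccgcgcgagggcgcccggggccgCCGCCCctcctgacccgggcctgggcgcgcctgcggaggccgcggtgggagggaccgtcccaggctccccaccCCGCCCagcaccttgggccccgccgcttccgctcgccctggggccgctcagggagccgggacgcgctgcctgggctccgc
The promoters of ADAMTS7, ADAMTS14, ADAMTSL5 and ACAN were found in the RefSeq table, with a GC content of 74.3%, 79.7%, 83.0% and 77.0%. They held 7, 5, 3 and 8 GC boxes, counted on both strands with overlaps, and 44.6% of all 27305 promoters and 70.0% of the 404 of table genes held at least 1. The core letters TAATTG, to which MSX1 is known to bind, were in none of the 4 windows on either strand, in 7.58% of all promoters and in 2.72% of those of table genes. The letters TATAAA, found in 12% of all promoters and 11.9% of those of table genes, were in none of the 4 either. These counts describe the letters of a short window only.

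Genes that act with the members were looked up from lists of matrix genes. Of the substrates and binding partners, 5 of 17 are in the table and 4 were tested. COMP, the substrate of ADAMTS7, was at 0.52, 0.59 and 0.70 in Vector replicates 1, 2 and 3 and at 1.18, 1.64 and 1.27 in MSX1. In K139R it was at 1.32, 1.08 and 0.78, and in K139Q at 1.26, 1.78 and 1.38. All plasmid libraries lay above Vector. COMP reached the filter only through the plasmid groups, its Vector mean being 0.603, so its calls against Vector are no independent result. The log2 difference from Vector was 0.56 in MSX1 and 0.62 in K139Q (adjusted p = 0.00795 and 0.00549 from limma) and 0.35 in K139R (adjusted p = 0.0772 from limma). Removal of the GC trend brought the first and second to 0.08 and 0.26 (adjusted p = 0.634 and 0.112 from limma), so that COMP, unlike ADAMTS7, was no longer called. Without K139R replicate 3, COMP passed in K139R as well (0.46, adjusted p = 0.0391 from limma).

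COL1A1, a chain of type I collagen whose procollagen is trimmed by the ADAMTS14 group of proteases, was at 4.31 ± 0.777 (SD, n = 3) in Vector, 10.6 ± 2.49 in MSX1, 7.21 ± 1.74 in K139R and 9.21 ± 1.94 in K139Q. It passed limma against Vector in all 3 groups (log2 difference 1.11, 0.62 and 0.94, adjusted p = 8.65e-04, 0.028 and 0.00292), although leaving out K139R replicate 1 or 2 or Vector replicate 2 or 3 ended the call in K139R (adjusted p = 0.0968, 0.0778, 0.0646 and 0.1 from limma).

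The thrombospondins THBS2 and THBS4 are secreted relatives of COMP, and they moved apart. THBS2 was at 0.70 ± 0.391 (SD, n = 3) in Vector, 1.31 ± 0.161 in MSX1, 3.05 ± 0.43 in K139R and 2.14 ± 0.254 in K139Q. It reached the filter only through the plasmid groups, so its calls against Vector are no independent result. Its 3 K139R libraries, at 2.59 to 3.44, lay above its K139Q libraries, at 1.99 to 2.43, and these above its MSX1 libraries, at 1.19 to 1.49. It rose in K139R against Vector by a log2 difference of 1.27 (adjusted p = 1.23e-04 from limma), in K139Q by 0.90 (adjusted p = 0.00112 from limma) and in MSX1 by 0.46 (adjusted p = 0.0291 from limma). The last was lost without MSX1 replicate 3 or Vector replicate 2 or 3 (adjusted p = 0.089, 0.114 and 0.0998 from limma). THBS2 was also the one gene of these lists that passed between K139R and MSX1 (log2 difference 0.81, adjusted p = 0.0301 from limma). That call was lost with the replicate block by title number (adjusted p = 0.0535 from limma) or library name number (adjusted p = 0.0547 from limma), in the fit of only these 2 groups or with a pseudocount of 0.1 (adjusted p = 0.0529 and 0.0555 from limma), and without K139R replicate 2 or 3 or MSX1 replicate 1 or 2 (adjusted p = 0.125, 0.0559, 0.113 and 0.114 from limma). THBS4 was at 5.87 ± 0.169 in Vector, 1.81 ± 0.358 in MSX1, 3.28 ± 0.551 in K139R and 3.15 ± 1.23 in K139Q. It fell against Vector in all 3 (log2 difference -1.30, -0.69 and -0.77, adjusted p = 2.29e-04, 0.0106 and 0.00515 from limma), where 22.1%, 5.44% and 9.38% of the tested genes were called lower. Its value in the mutants was 1.82 and 1.74 times that in MSX1, and neither difference passed (adjusted p = 0.0838 and 0.24 from limma). THBS1 was below the filter, with group means of 0.217 ± 0.332 with Vector, 0.55 ± 0.624 with MSX1, 0.737 ± 0.287 with K139R and 0.963 ± 1.11 with K139Q.

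Of 31 other matrix proteases, of the MMP and ADAM families, 3 are in the table, and all 3 rose in the comparisons of MSX1, K139R and K139Q with Vector, in which 67.7%, 60.0% and 64.0% of the tested genes were called higher. MMP2, a secreted gelatinase, was at 2.12 ± 0.928 (SD, n = 3) in Vector and at 4.89 ± 0.306, 4.25 ± 0.662 and 4.13 ± 0.91 in MSX1, K139R and K139Q. The membrane-type protease MMP15 went from 1.80 ± 0.144 to 5.22 ± 0.60, 4.44 ± 1.18 and 4.87 ± 0.75, and MMP17, held to the membrane by a GPI anchor, from 2.64 ± 1.26 to 6.75 ± 2.5, 6.36 ± 2.5 and 6.25 ± 2.69. Their log2 differences from Vector were 0.96, 0.79 and 0.75 for MMP2, 1.15, 0.94 and 1.06 for MMP15 and 1.10, 1.03 and 0.99 for MMP17, with adjusted p from limma between 2.53e-04 and 0.0221. Those of MMP17 were each lost without Vector replicate 3 (adjusted p = 0.0597, 0.106 and 0.117 from limma). They were also lost in MSX1 without MSX1 replicate 3, in K139R without its replicate 1, and in K139Q without its replicate 2 or 3 (adjusted p = 0.0513, 0.0872, 0.102 and 0.0548 from limma). With the GC trend removed, MMP17 differed from Vector by 0.41 in MSX1 and 0.48 in K139Q and did not pass (adjusted p = 0.186 and 0.129 from limma). None of the 3 passed between any plasmid groups.

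Of 20 proteoglycan, link protein and hyaluronan genes, ACAN and HAS2 are in the table. HAS2, the main synthase of hyaluronan, to which aggrecan binds, was at 0.333 ± 0.0971 (SD, n = 3), 0.81 ± 0.0361, 1.17 ± 0.536 and 0.923 ± 0.369 in Vector, MSX1, K139R and K139Q. It reached the filter only through K139R, the group in which it was highest, so its call there is no independent result. It passed against Vector in K139R (log2 difference 0.67, adjusted p = 0.0111 from limma) and in K139Q (0.51, adjusted p = 0.0346 from limma) and just missed the threshold in MSX1 (0.44, adjusted p = 0.0509 from limma), where removal of the GC trend raised it to 1.39 (adjusted p = 8.34e-06 from limma). Leaving out K139Q replicate 1 or 2 or Vector replicate 1 or 2 ended the call in K139Q (adjusted p = 0.147, 0.0511, 0.0921 and 0.073 from limma), as did the block by library name number (adjusted p = 0.0522 from limma). The TIMP inhibitors were not analysed here. SERPINH1, a collagen chaperone, was listed with the inhibitors for its family. It rose against Vector by a log2 difference of 2.16, 1.83 and 2.26 in MSX1, K139R and K139Q (adjusted p = 5.72e-06, 2.39e-05 and 2.78e-06 from limma). Under quantile normalization, which sets values by rank within a library, the difference was 0 in all 3. A gene that keeps its rank gets a difference of 0 there whatever its change, so this value does not bear on the rise.

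**Figure D4:**
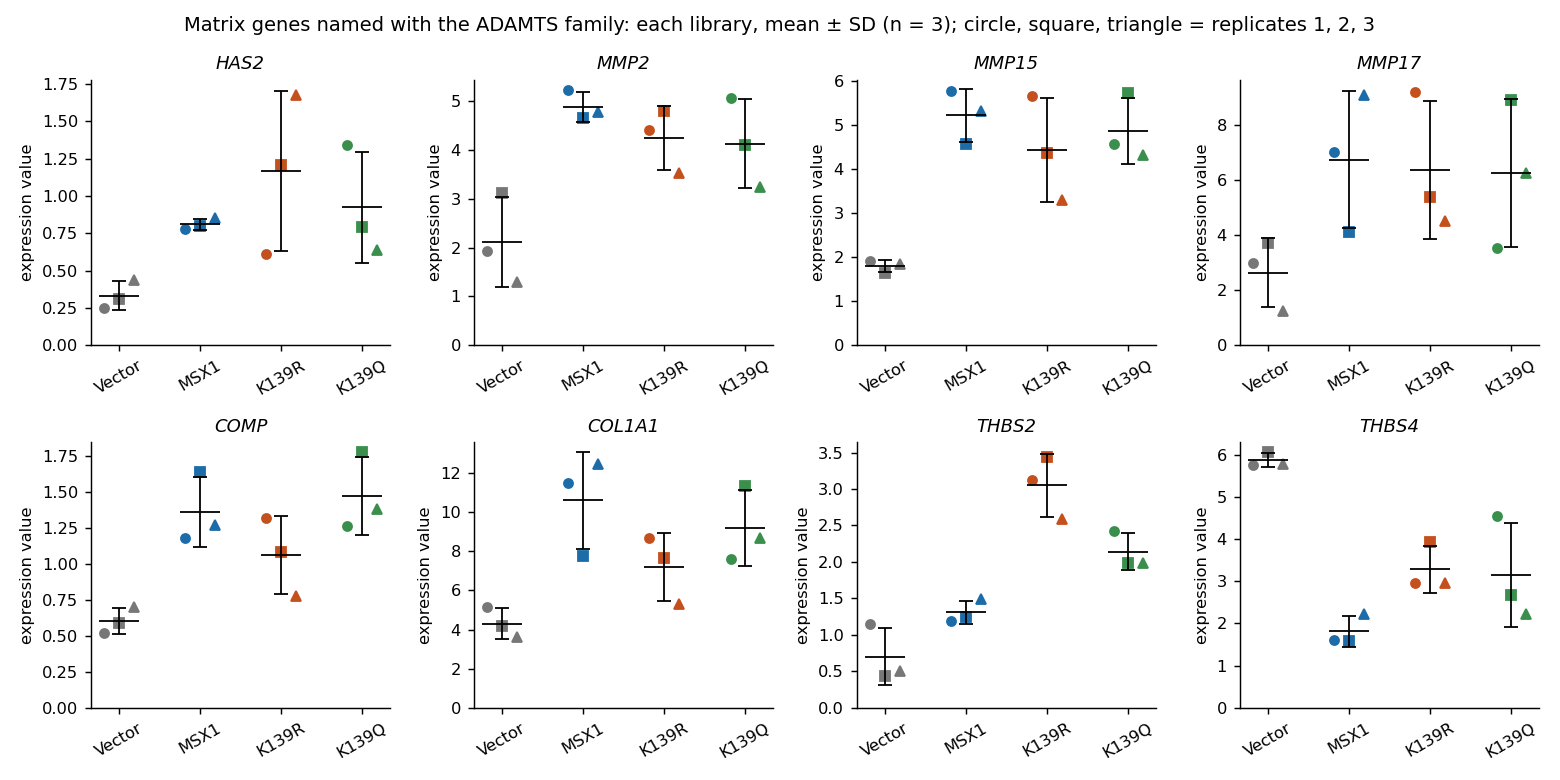
Expression value (linear axis, unit not given, one scale per gene) of 8 matrix genes in each of the 12 libraries, with the group mean and SD (n = 3) in black. The proteases MMP2, MMP15 and MMP17 and the matrix genes COMP and COL1A1 are higher in the plasmid groups, THBS4 falls from 5.87 in Vector to 1.81 in MSX1, and THBS2 is highest in K139R at 3.05.

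The cell type could be checked only in part, since the table holds 1 of 14 markers of palatal mesenchyme and fibroblasts, COL1A1. Of 20 chondrocyte markers, COMP alone is listed. Of the markers of other cells, EPCAM and KRT17 (epithelial, 2 of 7), TUBB3 and RBFOX3 (neuronal, 2 of 6) and CD68 (blood cells, 1 of 4) are in the table, and none of 3 endothelial markers is. The group means of EPCAM were 1.44, 3.71, 3.8 and 3.28 in Vector, MSX1, K139R and K139Q, and those of KRT17 were 1.03, 3.48, 2.7 and 3.29. In the same order, TUBB3 was at 11.8, 49.2, 43.1 and 60.1 and RBFOX3 at 2.48, 8.04, 10.6 and 5.48. For RBFOX3, a single library was far above the others in MSX1, at 14.27, and in K139R, at 17.23. CD68 was at 0.24 to 0.72 in Vector, 1.97 to 2.86 in MSX1, 1.18 to 3.40 in K139R and 2.30 to 2.67 in K139Q. By group means, 72.2%, 77.7% and 75% of the 665 genes were higher in MSX1, K139R and K139Q than in Vector. These markers moved with the same groups as ADAMTS7 and ADAMTSL5. Their part in the result was not tested, and in bulk libraries a change in the number of cells of a type and a change in the RNA per cell cannot be told apart.

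The counting adds limits of its own. ADAMTS7 overlaps MORF4L1 on the opposite strand by 945 bases, and ADAMTSL5 overlaps the antisense gene AC027307.1 by 589 bases. The library kit keeps strand, but the sources used here do not state that the counting used it. ADAMTS7 also has 3 transcribed pseudogenes on chromosome 15, ADAMTS7P1, ADAMTS7P3 and ADAMTS7P4, with which reads may be shared, so its level is uncertain to that extent.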

How the data were processed

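RNA was sequenced from 12 HEPM libraries, 3 in each of 4 groups, which were assigned by their titles. The deposited table holds a score for each gene and library. The scores fit a logarithm of value + 1, centred and scaled per gene over the 12 libraries to unit SD. The base of the logarithm drops out in this scaling. The authors listed only genes that differed between MSX1 and Vector. The submitters' processing notes name RSEM, while the study's methods name featureCounts and DESeq2. The genome build and the unit are not given in the sources used here. Whole steps of 0.01 were recovered from the scaling by a lattice search (Python 3.11.15, numpy 2.4.6), with residuals of at most 0.0011 steps, for 665 of 666 genes (RN7SL1 failed).

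Genes that reached a group mean of 1 were fitted on log2(value + 1) with limma 3.58.1 (R 4.3.3), all 12 libraries in 1 fit, with Benjamini-Hochberg adjustment over the 533 genes and calls at an adjusted p under 0.05. The count test named by the study could not be applied to these values. Single genes were compared by exact two-sided permutation tests (scipy 1.17.1). The scripts were tested on simulated data. Nothing says that libraries came from separate cultures beyond the study's term biological replicates. Depth is unknown.

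Sequences and positions come from GENCODE release 29 (GRCh38) and RefSeq (GRCh38.p14). Text names the 5 members, MSX1, table genes from lists of matrix genes and cell type markers, and the 3 nearest genes of each member. Some results under this rule are not reported here. The members and lists were chosen with earlier results of these data known.

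The titles and library names give a replicate number, which was treated here as a possible batch. Deviations from the group means of same-numbered libraries correlated at -0.483 to 0.18 over 18 pairs, 3 of them above 0.1. For the MSX1 group, titles and library names number 2 libraries differently, so a replicate block was fitted with each numbering. Replicate numbers in the text are those of the titles. Alternatives were a pseudocount of 0.1 or 5, no filter, a filter of 5, quantile normalization, the scaled score itself, fits on the compared groups only, removal of a GC trend, and leaving out each library. Removal of the GC trend with the block and limma with a trend on the mean were added after the data had been seen.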

Additional observations from a re-analysis of the deposited data

How the results depend on the processing

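The authors chose the listed genes on MSX1 against Vector, so calls that hold in that comparison are not independent evidence. It called 479 of the 533 tested genes. The calls of ADAMTS7 and ADAMTSL5 against Vector held under every alternative in MSX1, and under all but quantile normalization in K139R and, for ADAMTSL5, in K139Q. There the log2 difference was 0.37 for ADAMTS7 in K139R (adjusted p = 0.0961 from limma, 0.00148 to 0.0961 over all alternatives), and for ADAMTSL5 0.51 in K139R (0.0917, 0.00153 to 0.0917) and 0.49 in K139Q (0.0877, 6.56e-04 to 0.0877). Among the matrix genes, quantile normalization also ended the calls against Vector of SERPINH1, MMP2 and MMP17 in all 3 groups, of COL1A1 and HAS2 in both mutants, of COMP in MSX1 and K139Q, and of THBS2 in MSX1 and K139Q. The table holds more rising than falling genes, which such a scaling evens out by construction. Differences between plasmids that had not passed changed sign in places. With the GC trend removed, with or without the block, ADAMTSL5 was at 0.0598 in K139R against MSX1 and ADAMTS7 at -0.12 in K139Q against K139R. Leaving out 1 library gave -0.45 to 0.0075 for ADAMTSL5 in K139R against MSX1, -0.41 to 0.0065 in K139Q against MSX1 and -0.41 to 0.007 with both mutants, each upper end without MSX1 replicate 3, and -0.11 to 0.30 for ADAMTS7 in K139Q against K139R. ADAMTSL5 did not reach the filter of 5.

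Counts of called genes moved as follows. Against Vector, the filter of 5 gave 157, 128 and 138 calls of 170 genes in MSX1, K139R and K139Q, and quantile normalization 183 and 231 in K139R and K139Q. The 23 calls in K139R against MSX1 became 8 and 9 with a pseudocount of 0.1 and 5, 7 with the filter of 5, 55 on the scaled score and 0 in a fit of the 2 groups alone (119 at an unadjusted p under 0.05 in limma). The 5 in K139Q against MSX1 became 3, 3 and 8 with a pseudocount of 0.1, the scaled score and the 2 groups alone. The 1 in K139Q against K139R became 0 with a pseudocount of 5, the filter of 5, quantile normalization and the 2 groups alone (56, 24, 52 and 26 at an unadjusted p under 0.05 in limma). The 20 with both mutants against MSX1 became 8 with the filter of 5, 35 on the scaled score, 12 with the GC trend removed and 10 without Vector. Leaving out 1 library gave 0 to 140 calls for K139R, 2 to 10 for K139Q and 0 to 78 for both mutants against MSX1, and 1 to 26 for K139Q against K139R. The highest counts except that of K139Q against MSX1 came without K139R replicate 1, and at the counts of 0 between 75 and 119 genes had an unadjusted p under 0.05 in limma.

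With the replicate block by title number, the calls were 6 in K139R and 3 in K139Q against MSX1, and by library name number 0 (122 at an unadjusted p under 0.05 in limma) and 1. With the GC trend removed as well, they were 9, 3 and, for both mutants, 7. The block changed no call of a tested member and, among the matrix genes named, only calls of THBS2 and HAS2. Besides those given above, it ended the call of THBS2 with both mutants against MSX1 (log2 difference 0.63, adjusted p = 0.0449 from limma). The adjusted p was then 0.0626 by title number and 0.0597 by library name number from limma. That call was also lost without MSX1 replicate 1, 2 or 3 (adjusted p = 0.203, 0.135 and 0.101 from limma).

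Depth is unknown, so the error of the low values of ADAMTS4, ADAMTS14 and ACAN is not known beyond the spread of 3 libraries.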
